A study of Mus musculus with 60 samples.

Results

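Chemokines and the cytokine interleukin-6 are secreted by tumor cells as well as by their hosts, and 10 of their genes were followed here in single PyMT-Bo1 cells recovered from mouse bone: Ccl2, Ccl5, Ccl7, Cxcl1, Cxcl5, Cxcl10, Cxcl12, Cxcl16, Cx3cl1 and Il6. They were taken by name from the 47729 mouse genes of the count table. All 10 had an entry, and 8 reached 1 CPM (counts scaled to the total over mouse genes) in at least 1 group. PyMT-Bo1 is a mouse breast cancer line that carries luciferase, nuclear mApple and the surface marker Thy1.1. Its cells were stained in culture with the membrane dye DiD, which is diluted at each division, and were delivered by intracardiac injection to wild-type female C57BL6/J mice aged 8 to 10 weeks. Femurs and tibias of 5 such mice were combined at day 11, and Thy1.1+ CD45- tumor cells were sorted singly into wells as DiD+ (high dye, called dormant) or DiD- (low dye, called proliferative). The 32 DiD+ and 28 DiD- cells were parted by dye content and came from the same injected line and the same pool of bones.

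Because the source mouse of a cell is not recorded, cells cannot stand in for animals, and each dye group counts as 1 sample. No test between the groups was therefore possible. The values are levels, ratios and ranges over cells, and no difference below has a replicate check.

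Chemokines are small secreted proteins that guide leukocytes along a concentration gradient through G protein-coupled receptors. They are named by the spacing of their first cysteines as CC, CXC or CX3C ligands. In bone marrow, CXCL12 from stromal cells retains hematopoietic and tumor cells through CXCR4, whereas CCL2, CCL5 and CXCL10 are inflammatory ligands that NF-kB and interferon signaling can induce. IL-6 signals through IL6RA and the shared chain gp130 (Il6st) to the kinase JAK and the transcription factor STAT3.

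Promoters of 5 of the 10 genes were found in the RefSeq table (build GRCm38.p6): Cxcl10, Cxcl12, Cx3cl1, Il6 and Cxcl1. No sequence is given for Ccl2, Ccl5, Ccl7, Cxcl5 and Cxcl16. They are printed to set the gene with one of the widest ranges between cells, Cxcl10, beside detected genes with similar levels in both groups (Cxcl12, Cx3cl1) and beside genes with 0 counts (Il6, Cxcl1). Each line gives the 250 bases before the RefSeq start (for Cxcl1 and Cx3cl1 it lies within the gene bounds given further on, which are GENCODE's), 5′ to 3′ on the strand of the gene. Capitals mark matches, on either strand, to the kB site bound by NF-kB (GGGNNNNNCC), the interferon-stimulated response element (GAAANNGAAA) or the AP-1 site (TGANTCA, with C or G at N).
Cxcl10, chr5:92348890-92349139, reverse strand: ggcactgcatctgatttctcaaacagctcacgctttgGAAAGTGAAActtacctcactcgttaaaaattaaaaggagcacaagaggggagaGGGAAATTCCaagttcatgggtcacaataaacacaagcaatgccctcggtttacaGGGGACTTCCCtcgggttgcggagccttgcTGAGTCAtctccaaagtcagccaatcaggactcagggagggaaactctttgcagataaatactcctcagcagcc
Cxcl12, chr6:117168285-117168534, forward strand: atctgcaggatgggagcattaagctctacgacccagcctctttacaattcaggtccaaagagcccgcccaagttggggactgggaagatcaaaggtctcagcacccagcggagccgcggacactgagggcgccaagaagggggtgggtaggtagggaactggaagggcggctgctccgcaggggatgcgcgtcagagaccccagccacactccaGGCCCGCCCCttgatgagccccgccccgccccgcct
Cx3cl1, chr8:94771930-94772179, forward strand: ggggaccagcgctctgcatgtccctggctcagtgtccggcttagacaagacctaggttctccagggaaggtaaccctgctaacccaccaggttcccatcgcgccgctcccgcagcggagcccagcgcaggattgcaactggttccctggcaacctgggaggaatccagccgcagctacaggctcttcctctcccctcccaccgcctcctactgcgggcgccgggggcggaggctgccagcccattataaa
Il6, chr5:30012864-30013113, forward strand: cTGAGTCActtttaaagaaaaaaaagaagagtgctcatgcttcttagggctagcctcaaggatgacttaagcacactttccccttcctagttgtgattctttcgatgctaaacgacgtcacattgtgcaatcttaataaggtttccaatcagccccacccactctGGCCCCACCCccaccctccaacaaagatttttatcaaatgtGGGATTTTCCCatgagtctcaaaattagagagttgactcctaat
Cxcl1, chr5:90890995-90891244, forward strand: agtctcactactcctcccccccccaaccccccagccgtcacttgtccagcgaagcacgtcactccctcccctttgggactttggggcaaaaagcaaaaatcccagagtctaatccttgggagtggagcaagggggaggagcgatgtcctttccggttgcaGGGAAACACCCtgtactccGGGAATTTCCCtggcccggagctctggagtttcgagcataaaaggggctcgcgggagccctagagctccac

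The Cxcl10 promoter held all 3 kinds of match. The interferon element lay 213 to 204 bases before the start, kB matches lay at 159 to 150 and, as overlapping matches, at 104 to 94, and the AP-1 match lay at 74 to 68. Il6 and Cxcl1 held kB matches, Il6 also an AP-1 match, Cxcl12 a single kB match 36 to 27 bases before the start, and Cx3cl1 none. Of 32851 promoters of this length, 45.8% held a kB match, 2.98% an interferon element, 4.46% an AP-1 match and 0.0365% (12 promoters) all 3. A match describes letters only.

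A DiD+ cell had 2276789 to 7794219 mouse-gene counts and a DiD- cell 2624405 to 6199108. The CPM of a group pools its cells: all counts of the gene over all counts of the group. With these totals a gene without a count can still hold up to 0.0205 CPM in the DiD+ and 0.0251 CPM in the DiD- group (3 counts over the group). Of the 6 epithelial markers listed, Krt8 and Krt18 were abundant, every cell having at least 572 Krt8 counts, while Krt19, Krt7 and Epcam had 0 counts and Cdh1 had 1. A transgene was counted in every cell except DiD+ cell 30.

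Not all wells held tumor RNA alone. The macrophage-expressed gene Cd74 (the class II invariant chain) had 124 to 12721 counts in 7 cells, namely DiD+ cells 19, 21, 24, 30, 37 and 88 and DiD- cell 84, and 0 counts in the other 53. These 7 are called Cd74 cells. They supplied 19.9% of all mouse-gene counts in DiD+ and 2.3% in DiD- cells. The summed level of 13 macrophage or monocyte markers reached 20669.6 CPM in a DiD+ cell. Without the Cd74 cells the highest value was 193 CPM for DiD+ and 127 CPM for DiD- cells, no cell had at least 10 counts of more than 5 of the 13 markers, and 2 of the markers had 0 counts in DiD+ and 1 in DiD- cells. Each result is therefore given for all cells (32 and 28) and without the Cd74 cells (26 and 27). The second set still differed in markers of other cells. The hemoglobin gene Hbb-bs stood at 0.0599 CPM in DiD+ against 761 CPM in DiD- cells, where cell 86 held 99.6% of the counts, and 5 of the 5 erythroid markers with at least 1 CPM were lower in DiD+. The keratin gene Krt18 stood at 604 and 1602 CPM, and the osteocyte gene Dmp1 at 37.6 and 0 CPM, cell 70 holding 74.8% of the former. DiD+ cell 29 and DiD- cells 44 and 86 had at least 50% of another cell type's markers, marrow stromal markers set aside, and stayed in. Of the 8 marrow stromal markers, which include Cxcl12, 3 DiD+ and 4 DiD- cells also had at least 50% and stayed in. Leaving out cells 29, 44 and 86 with the Cd74 cells gave log2 ratios of 1.00 for Ccl2, 1.79 for Ccl7, 2.37 for Cxcl10, 1.94 for Cxcl16, -0.18 for Cxcl12 and 0.08 for Cx3cl1. The part of the other markers in the results was not tested.

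Ccl7 and Cxcl10 RNA was higher in DiD+ cells, Ccl5 and Cxcl16 were counted in DiD+ cells alone, and Ccl2, Cxcl12 and Cx3cl1 differed by less than 2-fold, with 1 or a few cells holding much of each larger difference. Of the 5 genes with at least 1 CPM in both groups, Ccl7 and Cxcl10 were at least 2-fold higher in DiD+ on the log2(CPM + 1) scale, and 0 were as much lower, in both sets. Over all cells, 6.14% of the 10936 genes with that level in both groups were as much higher and 3.42% as much lower, and without Cd74 cells 6.11% and 3.66% of 10813 genes. Without DiD+ cell 68, 0 of the 5 were 2-fold higher and Ccl2 was 2-fold lower in both sets.

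Ccl5, Cxcl5 and Cxcl16 reached 1 CPM in DiD+ cells only, so a minimum of 1 CPM in either group could let them in only as higher. Counted with them, 5 of 8 genes were 2-fold higher and 0 lower in both sets, beside 12.1% higher and 4.86% lower among 12432 genes over all cells and 10.4% and 5.71% among 12153 without Cd74 cells. That count is a description and supports no direction. The median log2 ratio was 0.64 over all cells and 0.92 without Cd74 cells for the 5 genes, and 1.29 and 1.45 for the 8. Without DiD+ cell 68 the count was 3 higher and 1 lower, with medians of 0.79 and 0.75. Without DiD+ cell 82 it was 4 over all cells, and without DiD- cell 26 or 71 Ccl2 made it 6 in both sets.

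**Figure D1:**
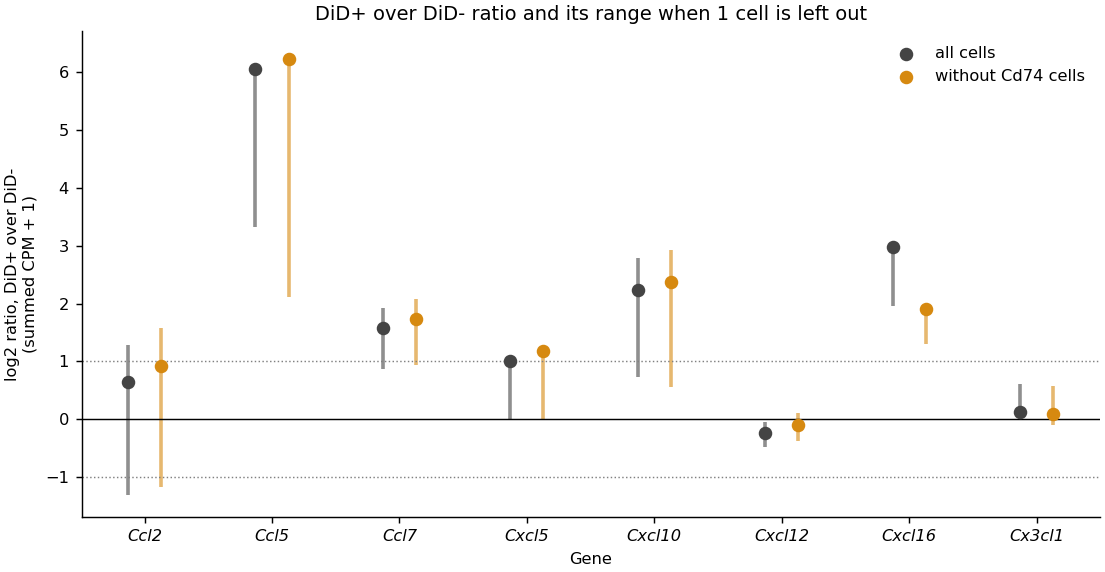
Log2 ratio of summed CPM + 1 in DiD+ over DiD- cells for each detected gene (points), over all cells and without Cd74 cells, with lines from the lowest to the highest ratio obtained when any 1 cell is left out and dotted lines at 2-fold. The line of Ccl2 runs from -1.31 to 1.28 over all cells, and the lines of Cxcl10 and Ccl7 also cross the 2-fold line.

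CCL2, the main attractant of CCR2+ monocytes, is encoded by Ccl2 (ENSMUSG00000035385, chr11:82035571-82037453, forward strand, GRCm38). Per DiD+ cell its level ran from 0 to 2598 CPM with a median of 2.09, and per DiD- cell from 0 to 588 CPM with a median of 8.43. It was counted in 16 of 32 DiD+ cells (50%, exact binomial 95% interval 31.9% to 68.1%) and in 17 of 28 DiD- cells (60.7%, 40.6% to 78.5%). Thus all but 1 of the DiD+ cells lay within the DiD- range. The exception, DiD+ 68, held 9580 of the 12680 Ccl2 counts in DiD+ cells (75.6%).

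Summed over cells, Ccl2 stood at 86.8 CPM (exact Poisson 95% interval 85.3 to 88.3) in DiD+ and 55.3 CPM (54.0 to 56.7) in DiD- cells, which makes the log2 ratio 0.64, or 0.92 without Cd74 cells. The reads carry no molecular identifiers, so CPM intervals and zero limits cover counting error only. Intervals and limits of shares cover the counting of cells, taken as independent, and not the spread between mice. Without DiD+ cell 68 the direction turned: 21.8 CPM in DiD+ against 55.3 CPM in DiD- (log2 ratio -1.31), or -1.17 without Cd74 cells. Without DiD- cell 71, which held 38.7% of the DiD- counts, the ratio was 1.28, or 1.58 without Cd74 cells, and without DiD- cell 26 it was 1.02 or 1.31. Scaling each cell by its spike-in RNA also turned the direction, to -0.80 and -0.60. That scaling moved the median of all genes to -0.34 over all cells and -0.24 without Cd74 cells, so Ccl2 lay below the median of all genes under it.

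Ccl7 (ENSMUSG00000035373, chr11:82045712-82047525, forward strand) encodes a related monocyte attractant and lies 8258 bases beyond Ccl2 with 0 annotated genes between them. It was counted in 13 of 32 DiD+ cells (40.6%, 23.7% to 59.4%) and in 13 of 28 DiD- cells (46.4%, 27.5% to 66.1%). Levels ran from 0 to 517 CPM per DiD+ cell and from 0 to 95.8 CPM per DiD- cell, with medians of 0 in both. Only cells 68 and 22 among the DiD+ cells exceeded the highest DiD- cell, holding 41.4% and 22.7% of the group's counts. The summed levels were 31.5 and 9.98 CPM in DiD+ and DiD- cells (log2 ratio 1.57), and 36.2 against 10.2 CPM (1.73) without Cd74 cells. Leaving out cell 68 gave 0.86 and 0.94, under 2-fold in both sets. Under spike-in scaling the ratios were 0.37 and 0.38, above the median of all genes.

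Where Ccl2 was found, Ccl7 often was too. Without Cd74 cells, 28 of 53 cells had at least 10 Ccl2 counts, 24 had as many of Ccl7 and 19 had both, which is 67.9% of the Ccl2 cells and 79.2% of the Ccl7 cells. The Spearman rho of their CPM was 0.51 over the 53 cells, 0.55 within the 26 DiD+ and 0.50 within the 27 DiD- cells, and 0.48 within DiD+ without cell 68. Cells share a line, a pool of bones and a protocol and are not replicates, so rho is a description without a p. For the other 27 pairs of detected genes it lay between -0.17 and 0.29.

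**Figure D2:**
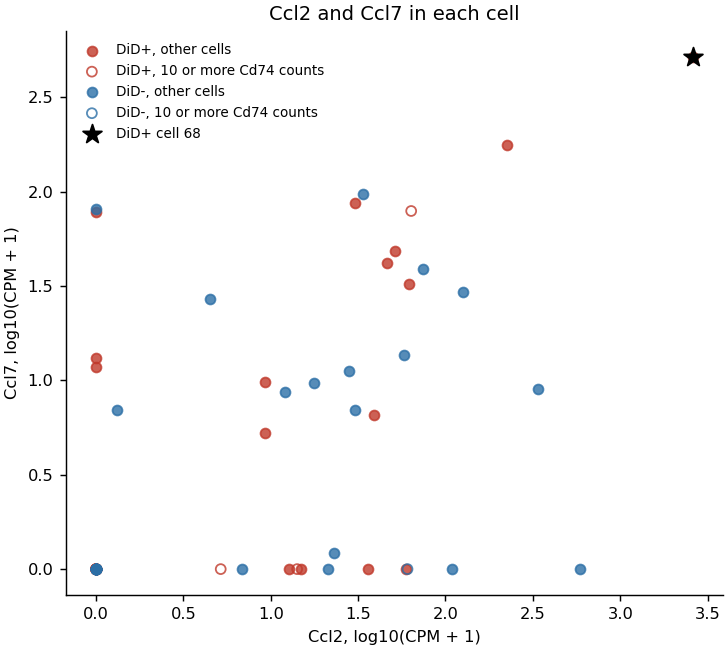
Ccl2 against Ccl7, each as log10(CPM + 1), in the 60 cells, with color for the dye group, open symbols for Cd74 cells and a star for DiD+ cell 68. Cells with neither gene lie at the origin, and cell 68 is highest for both genes.

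CCL5 (RANTES), which draws T cells and monocytes, was found in fewer cells. Ccl5 (ENSMUSG00000035042, chr11:83525778-83530518, reverse strand) was counted in 5 of 32 DiD+ cells (15.6%, 5.28% to 32.8%) and in 0 of 28 DiD- cells. The latter allows up to 10.7% of cells with a count (3 of 28), or 12.3% by the exact binomial interval. Such a limit concerns cells with a count, not cells that express the gene, since a single-cell library can miss transcripts. The 5 cells were numbers 22 (1390 CPM), 21 (191 CPM), 80 (85.6 CPM), 75 (11.9 CPM) and 24 (0.208 CPM, 1 count). Cells 21 and 24 are Cd74 cells, and the other 27 DiD+ cells were at 0. The summed level was 65.4 CPM in DiD+ and 0 in DiD- cells, at least 2604-fold higher against the limit of 3 counts over the group, and 74 CPM, at least 2880-fold higher, without Cd74 cells. Cell 22 alone held 86.8% of the counts. Without it the level was 9.02 CPM over all cells and 3.33 CPM without Cd74 cells, and on the log2(CPM + 1) scale the ratio went from 6.05 to 3.32 and from 6.23 to 2.11. Cell 22 had 0 Cd74 counts and 1 of the 13 macrophage markers.

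CXCL10 is an interferon-induced ligand of CXCR3 on T and NK cells. Its gene (ENSMUSG00000034855, chr5:92346638-92348889, reverse strand) overlaps Art3 on the opposite strand, which had 0 counts. Levels ran from 0 to 1935 CPM per DiD+ cell and from 0 to 148 CPM per DiD- cell, with medians of 0. It was counted in 10 of 32 DiD+ cells (31.2%) and in 9 of 28 DiD- cells (32.1%), near the same share. Above the highest DiD- cell there were 3 DiD+ cells, numbers 68, 38 and 21, the last a Cd74 cell. The other DiD+ cells lay within the DiD- range.

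In sum Cxcl10 reached 73.2 CPM in DiD+ against 14.8 CPM in DiD- cells (log2 ratio 2.23), and 82.9 against 15.1 CPM (2.38) without Cd74 cells. Cell 68 held 66.7% of the DiD+ counts. Without it 25 CPM remained and the ratio was 0.72, or 0.55 without Cd74 cells. Under spike-in scaling the ratios were 0.99 and 1.08.

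CXCL16, a membrane-bound ligand of CXCR6 that can be shed, was also counted in DiD+ cells alone. Cxcl16 (ENSMUSG00000018920, chr11:70453983-70459984, reverse strand) had counts in 7 of 32 DiD+ cells (21.9%, 9.28% to 39.97%) and in 0 of 28 DiD- cells. The Cd74 cells 24, 37 and 21 stood at 123, 12.5 and 5.98 CPM. Cells 36, 25, 70 and 87 stood at 31.8, 18.5, 9.18 and 5.31 CPM. Thus the highest cell was a Cd74 cell, and 67.8% of the Cxcl16 counts were in Cd74 cells, which held 19.9% of all counts. For the other detected genes the Cd74 cells held 0% (Cxcl5) to 20.8% (Cx3cl1) of the DiD+ counts. The part of macrophage RNA in the Cxcl16 difference was not tested. The summed level in DiD+ was 6.83 CPM, at least 272-fold above the limit in DiD- cells, and 2.75 CPM, at least 107-fold, without Cd74 cells. Leaving out the highest cell gave 2.90 CPM over all cells (without cell 24) and 1.45 CPM without Cd74 cells (without cell 36). Its exons overlap Zmynd15 on the opposite strand, which had 190 counts, and the library kit does not mark strand.

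CXCL12 and CX3CL1 were the most widely found. Cxcl12 (ENSMUSG00000061353, chr6:117168535-117181367, forward strand) was counted in 27 of 32 DiD+ cells (84.4%, 67.2% to 94.7%) and in 25 of 28 DiD- cells (89.3%, 71.8% to 97.7%). Levels ran from 0 through a median of 34.4 to 365 CPM per DiD+ cell and from 0 through 71 to 421 CPM per DiD- cell. The groups overlapped, with 3 DiD- cells above the highest DiD+ cell. The highest cell held 20.1% of the DiD+ counts and 17.2% of the DiD- counts. Summed levels were 89.5 and 106 CPM (log2 ratio -0.25), and 99.5 against 107 CPM (-0.11) without Cd74 cells. Leaving out any 1 cell kept the ratio between -0.49 and -0.04 over all cells. Without Cd74 cells it lay between -0.37 (without DiD+ cell 82) and 0.10 (without DiD- cell 32).

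Cx3cl1 (ENSMUSG00000031778, chr8:94772009-94782427, forward strand) encodes fractalkine, which is made on the membrane, mediates adhesion of CX3CR1+ cells and is shed by ADAM proteases. It was counted in 22 of 32 DiD+ cells (68.8%, 50.0% to 83.9%) and in 19 of 28 DiD- cells (67.9%, 47.6% to 84.1%). Levels ran from 0 through 23.7 to 138 CPM per DiD+ cell and from 0 through 17.6 to 259 CPM per DiD- cell. The DiD+ range lay within the DiD- range, and DiD- cell 45 alone was above the highest DiD+ cell. Summed levels were 32.0 and 29.2 CPM in DiD+ and DiD- cells (log2 ratio 0.13), and 31.6 and 29.6 CPM (0.09) without Cd74 cells. Its sign changed with single cells, from -0.02 without DiD+ cell 42 to 0.61 without DiD- cell 45, and was negative under spike-in scaling (-0.16 over all cells, -0.12 without Cd74 cells).

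The neutrophil attractants and IL-6 were scarce. Cxcl1 (ENSMUSG00000029380, chr5:90891241-90893115) and Il6 (ENSMUSG00000025746, chr5:30013114-30019981) had 0 counts in all 60 cells, which allows up to 5% of cells with a count (3 of 60). Cxcl5 (ENSMUSG00000029371, chr5:90759360-90761624) had 150 counts in DiD+ cell 82 (19.2 CPM), 1 count in DiD- cell 77 and 0 in the other 58 cells. Its 2-fold call therefore rests on 1 cell: the ratio of summed CPM was 123 (counting interval 21.7 to 4878), and without cell 82 the log2 ratio was -0.012 in both sets, from 1.01 over all cells and 1.18 without Cd74 cells.

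**Figure D3:**
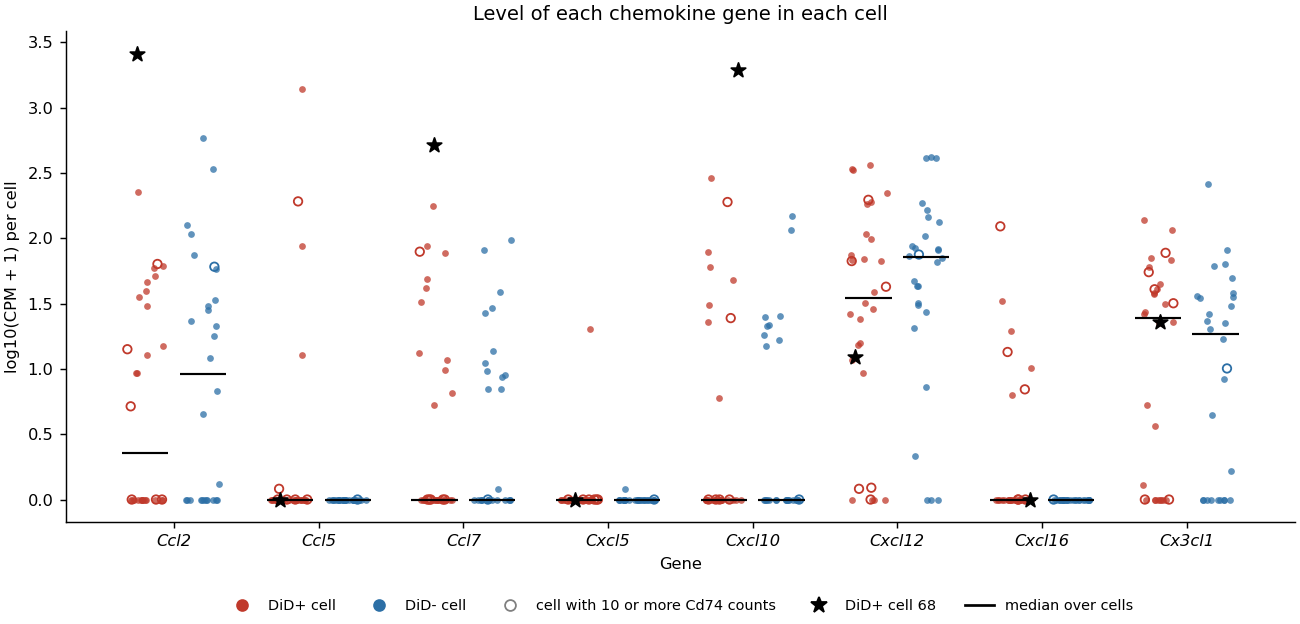
Level of each detected gene in each cell as log10(CPM + 1), DiD+ in red and DiD- in blue, with open symbols for Cd74 cells, a star for DiD+ cell 68 and a bar at the median over cells. Cell 68 is the highest for Ccl2, Ccl7 and Cxcl10, while Cxcl12 and Cx3cl1 are spread over most cells of both groups.

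Sharing of counts among cells divided the genes in the DiD+ group. The highest DiD+ cell held 75.6% of the Ccl2, 86.8% of the Ccl5, 66.7% of the Cxcl10 and 59.0% of the Cxcl16 counts. It held 20.1% of Cxcl12 and 13.4% of Cx3cl1, with Ccl7 between at 41.4%. In DiD- cells that division was not seen. There the highest cell held 38.7% of Ccl2, 36.3% of Cxcl10, 31.8% of Cx3cl1, 25.7% of Ccl7 and 17.2% of Cxcl12. Of the 10 genes, a DiD+ cell had a median of 3 with at least 10 counts (range 0 to 6) and a DiD- cell a median of 3 (range 1 to 5). At least 4 of them were present in 15 of 32 DiD+ and in 8 of 28 DiD- cells, or in 13 of 26 and 8 of 27 without Cd74 cells. The difference depended on the cutoff. At least 3 were present in 17 of 32 DiD+ and 17 of 28 DiD- cells, or in 15 of 26 and 16 of 27 without Cd74 cells. Ccl5, Cxcl5 and Cxcl16 reached 10 counts in DiD+ cells alone, so they could raise only that side.

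**Figure D4:**
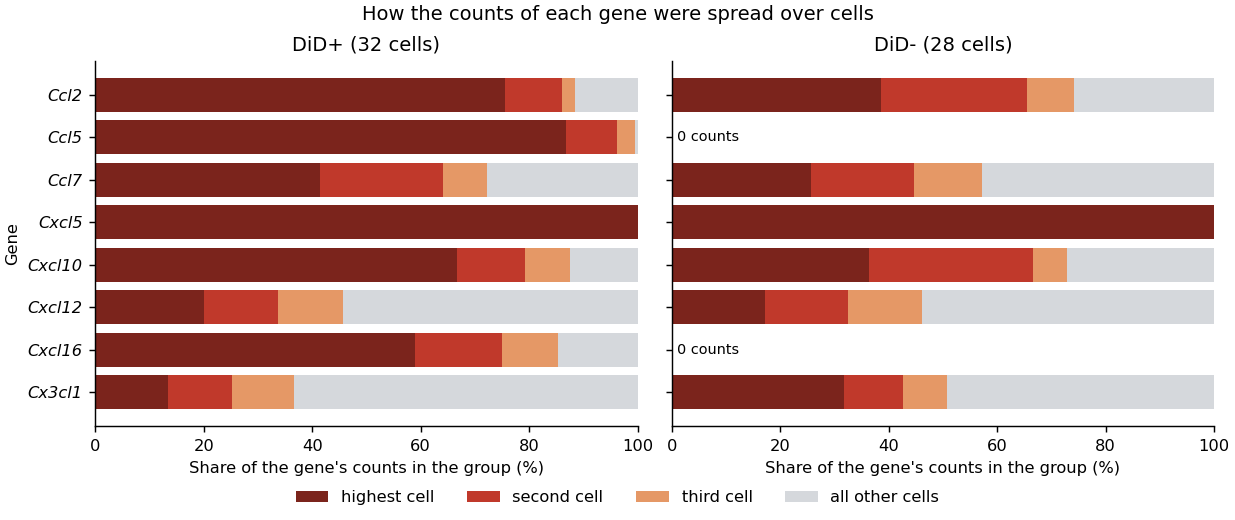
Share of each gene's counts within its group, in percent, that came from the highest, the second, the third and all other cells. The dark bars of the highest cell cover 75.6% for Ccl2 and 86.8% for Ccl5 in DiD+ cells, against 20.1% for Cxcl12.

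DiD+ cell 68 stood out beyond these genes. The summed level of the 10 genes was 5084 CPM there, against 1967 CPM in the next DiD+ cell (22) and 873 CPM in the highest DiD- cell (71). Its interferon-response genes summed to 12832 CPM, the highest of the 32 DiD+ cells, where the median was 607 CPM and the highest DiD- cell reached 942 CPM. It also had the highest share of spike-in counts (6.53%), though DiD+ cell 19, a Cd74 cell, was close (6.42%). The Krt8 counts (1215) and cell-cycle sum (405 CPM) of cell 68 ranked 31 and 29 of 32. Cell 68 held 0 Cd74 counts, 1 macrophage marker and 603 transgene counts, and Krt8 was its only epithelial marker with at least 10 counts. Whether the interferon genes or the spike-in share bear on its chemokine levels was not tested.

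Per kilobase of exon, Ccl2 was the most abundant in both groups. In DiD- cells it stood at 48.6 CPM per kb, followed by Cxcl12 (13) and Ccl7 (12.5), then Cx3cl1 (7.42) and Cxcl10 (6.56), and Cxcl5 (0.00449). Cxcl12 and Ccl7 overlapped when 1 cell at a time was left out, as did Cx3cl1 and Cxcl10. In DiD+ cells the order was Ccl2 (76.3), Ccl5 (68.1), Ccl7 (39.4), Cxcl10 (32.5), Cxcl12 (11), Cx3cl1 (8.14), Cxcl16 (2.26) and Cxcl5 (0.551), where neighbors among the first 5 overlapped in the same way and those from Cxcl12 downward did not. With the longest coding transcript as the length, Ccl5 came before Ccl2 and Cxcl10 before Ccl7 in DiD+ cells, and Cxcl10 before Cx3cl1 in DiD- cells. Without Cd74 cells the order by exon length was the same in both groups, and Cxcl16 and Cxcl5 also overlapped in DiD+ cells.

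Genes of the pathway lists were counted, as were all genes, with at least 1 CPM in either group. Of all genes, 12.1% were 2-fold higher and 4.86% lower over all cells, and 10.4% and 5.71% without Cd74 cells. A gene under 1 CPM in DiD- cells could enter only as higher. Of 15 receptor genes, 10 reached 1 CPM in a group over all cells (7 at least 2-fold higher in DiD+, 0 lower, median log2 ratio 1.13) but 6 without Cd74 cells (3 higher, 0 lower, median 0.75). With 1 CPM in both groups, 2 of 5 and 1 of 4 were higher. Placing genes without a count in 1 group at their bound gave medians of 1.21 and 0.77. Ccr3 and Cx3cr1, the receptor of fractalkine, had 0 counts without Cd74 cells, and Cxcr4, the signaling receptor for CXCL12, stood at 0.0684 and 0.171 CPM in DiD+ and DiD- cells. The scavenging CXCL12 receptor Ackr3 was at 76.3 and 71.3 CPM (0.10, or -0.04 without DiD+ cell 81). Cxcr6, the CXCL16 receptor, was at 31.2 and 45.2 CPM (-0.52) without Cd74 cells but had a ratio of 0.27 with them. Its direction turned on 1 cell: without DiD- cell 66, which held 39.9% of the DiD- counts, the ratio was 0.13, and without DiD+ cell 70, with 52.2% of the DiD+ counts, it was -1.49. Il6ra was at 13.2 and 4.21 CPM (1.44) and Il6st at 51.0 and 57.7 CPM (-0.18).

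Of NF-kB pathway genes, 2 of 16 were 2-fold higher and 0 lower over all cells (median log2 ratio 0.35), near the share of all genes (12.1%). Without Cd74 cells 0 of 15 were higher and 0 lower (median 0.26), where the share of all genes was 10.4%. The extremes among genes with at least 10 CPM were the inhibitor Tnfaip3 at 33 and 16.6 CPM (0.95, or 1.24 without DiD- cell 34), Nfkbie at 28.9 and 17.1 CPM (0.73), Ikbkb at 27.1 and 34.1 CPM (-0.32) and Nfkbib at 32.3 and 41.8 CPM (-0.36). Of the other IL-6 family cytokines, 4 reached 1 CPM without Cd74 cells and 1 was higher, Il11, at 4.02 and 0.128 CPM, with 84.7% of its DiD+ counts in cell 36, without which the ratio was 0.54. Their median was 0.30, and -0.09 without cell 68. Clcf1, the one with at least 10 CPM, stood at 37.9 and 50.7 CPM (-0.41). Over all cells 5 reached 1 CPM and 3 were higher (median 1.42). Il11 was under 1 CPM in DiD- cells, so it could enter only as higher. With 1 CPM in both groups, 1 of 3 was higher over all cells (median 0.02) and 0 of 3 without Cd74 cells (median -0.14).

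Of 6 genes of JAK-STAT3 signaling and its feedback, 1 was 2-fold higher and 0 lower in both sets, with a median of 0.25 without Cd74 cells. That gene was the kinase Tyk2 at 40.7 and 10.8 CPM (1.82), while the feedback inhibitor Socs3 stood at 187 and 217 CPM (-0.21, or 0.0090 without DiD- cell 34). Among 8 proteases that cut or shed chemokines, 5 reached 1 CPM and 2 were higher in both sets (Mmp2 and Mmp9, each under 10 CPM). Both calls rested on 1 cell. Without DiD+ cell 41, which held 88.6% of the DiD+ counts without Cd74 cells, Mmp2 stood at 0.947 against 1.51 CPM (-0.37), and without cell 42, which held 61.0%, Mmp9 stood at 3.73 against 1.89 CPM (0.71). All Mmp9 counts in DiD- cells were in cell 74. The sheddases of CX3CL1 and CXCL16 went apart, Adam10 at 73.7 and 47.8 CPM (0.62) and Adam17 at 39.7 and 71.9 CPM (-0.84), neither past 2-fold.

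Interferon-response genes were higher in DiD+ cells as a list: 17 of 20 over all cells (0 lower, median 1.69) and 13 of 19 without Cd74 cells (1 lower, median 1.48). Over genes with at least 1 CPM in both groups, 14 of 17 and 11 of 16 were higher, beside 6.14% and 6.11% of all such genes. Without cell 68 as well as the Cd74 cells, 8 of 18 were higher and 1 lower, with a median of 0.96. Ifit3 stood at 33.2 and 0.00857 CPM, cell 68 holding 64.5% of its DiD+ counts, and Ifi44 at 17.5 and 0 CPM, with 98.8% in cell 68, without which its ratio was 0.28. Bst2 was at 132 and 78.8 CPM (0.73) and Ifit2 at 15 and 18.5 CPM (-0.29). Of 28 genes of S and G2/M phase, 0 were 2-fold higher in DiD+ and 7 lower over all cells (median -0.77), where 4.86% of all genes were lower. Without Cd74 cells 0 were higher and 2 lower (7.14%, median -0.64), near the 5.71% of all genes. Other chemokine ligands were 2-fold higher for 8 of 12 over all cells (median 1.81, or 3.17 at the bound) and for 5 of 9 without Cd74 cells, where 2 were lower (median 1.09, or 1.30 at the bound). With 1 CPM in both groups, 2 of 5 of these ligands were higher and 0 lower over all cells. Without Cd74 cells 1 of 4 was higher and 1 lower. Ccl8 and Ccl12, at 17.3 and 29.5 CPM in DiD+ over all cells, had 0 counts outside the Cd74 cells. None reached 10 CPM without them.

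**Figure D5:**
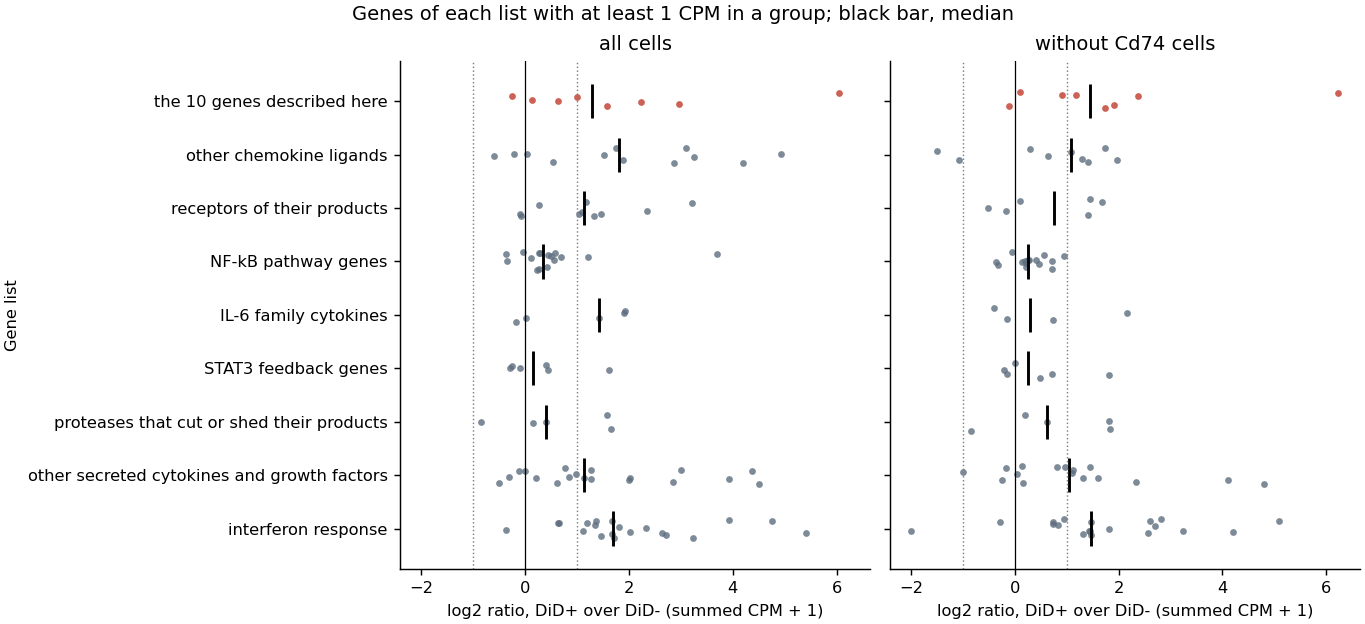
Log2 ratio of DiD+ over DiD- for each gene with at least 1 CPM in a group, by list, over all cells (left) and without Cd74 cells (right), with the median of each list as a black bar and dotted lines at 2-fold. The medians are 1.29 and 1.45 for the 8 detected genes of interest and 0.35 and 0.26 for the NF-kB genes.

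Genes whose CPM over the 53 cells without Cd74 was most like that of a chemokine were sought among 8298 genes with at least 10 CPM over those cells and a count in at least 10 of them. The 3 nearest to Ccl2 were Dnttip1 (Spearman rho 0.62), Tmem176b (0.52) and Ccl7 (0.51). For Ccl7 they were Zbp1 (0.53), Ccl2 (0.51) and Mtx1 (0.49). Cxcl10 was most like Atp9b (0.45), Pip5k1c (0.44) and Abcc4 (0.43). Cxcl12 was most like Tuft1 (0.52), Mthfd2 (0.46) and Plpp1 (0.44), and Cx3cl1 like Dctn4 (0.48), Ralb (0.47) and Tmem39a (0.47). Over all 60 cells Ccl2 and Ccl7 (for each other), Dnttip1, Tmem176b, Mtx1, Pip5k1c, Tuft1, Plpp1 and Ralb stayed among the 3 nearest, and the others were replaced. Ccl5, Cxcl5 and Cxcl16 had a count in too few cells. The values were picked as the 3 highest of all genes searched, so they are high by selection. The points share depth and pool, and these values are descriptions.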

How the data were processed

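Single DiD+ and DiD- PyMT-Bo1 cells were profiled by full-length SMARTer cDNA and Nextera XT libraries. The authors aligned reads with STAR to GRCm38/mm10, with spike-in and transgene sequences added, and deposited RSEM estimated counts per gene and cell, with no normalization. The authors also deposited a table of BASiCS-normalized signal, used here as an alternative. Instrument and read length differ between the series' design text and the study's methods. All 60 columns were matched to cells, and 0 were unused.

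Estimated counts were rounded and pooled within a group, and CPM were taken relative to the pooled counts on 47729 mouse genes. Log2 ratios used a pseudocount of 1 CPM. Cells with at least 10 Cd74 counts were left out in the second set. No cell was removed as a doublet, so wells with more than 1 cell may remain in both sets. Presence of a marker or gene in a cell required 10 counts. Shares of cells after drawing 2200000 counts from each cell differed by at most 1 cell in a group from those given. Pathway lists name the 2 highest and 2 lowest log2 ratios without Cd74 cells among genes with at least 10 CPM. Genes outside this rule (Il11, Mmp2, Mmp9, Ccl8, Ccl12, Ccr3, Cx3cr1, Cxcr4, Hbb-bs, Krt18, Dmp1) were named after their values were seen. The 10 genes and the lists were chosen with earlier results of these data known. Positions and exon lengths are from GENCODE M21. Python 3.11.15 (numpy 2.4.6, pandas 2.3.3, scipy 1.17.1, matplotlib 3.10.9) was used, and factors for the scaling alternatives came from edgeR 4.0.16 and from DESeq2 1.42.0 in R 4.3.3. The ratio step was tested on simulated counts. These gave every cell of a group the same expected level of a gene, so they do not cover counts gathered in 1 cell. Alternatives were other scalings, pseudocounts, minimums, Cd74 limits and leaving out cells.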

Additional observations from a re-analysis of the deposited data

How the results depend on the processing

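Of 8 detected genes, 5 were at least 2-fold higher in DiD+ cells in both sets. Over all cells this count was 2 with spike-in scaling and 3 with a pseudocount of 10 CPM, and without Cd74 cells it was 3 and 3. With the BASiCS-normalized values it was 4 of 7 in both sets, with medians of 1.40 and 1.53. Over all cells it was 4 of 8 with DESeq2 factors, and 4 of 7 as a mean over cells and after thinning. Without Cd74 cells these 3 settings gave 5. With edgeR factors the count stayed 5 in both sets. Restricted to the 5 genes that reached 1 CPM on both sides it was 2 and 2, and their medians were 0.64 and 0.92, also chosen after seeing the data. Leaving out 1 cell gave 3 to 6 in both sets. The median log2 ratio over all cells (1.29) was 0.37 with spike-in scaling, 1.47 as a mean over cells, 1.98 and 0.66 with pseudocounts of 0.1 and 10 CPM, 1.43 after thinning, 0.82 with no minimum and 1.10 with a minimum of 10 CPM. It was 1.5 without the 10 cells that held at least 50% of another cell type's markers (marrow stromal markers set aside), an alternative chosen after seeing the data. Leaving out 1 cell gave 0.79 to 1.64. Without Cd74 cells the median (1.45) was 0.38 with spike-in scaling, 1.61 as a mean over cells, 2.13 and 0.59 with the pseudocounts and 1.05 with no minimum, and 0.75 to 1.83 with 1 cell left out. The Cxcl5 log2 ratio turned from 1.01 and 1.18 to -0.012 and -0.0123 without DiD+ cell 82, and reached at most 1.04 and 1.22 when any other single cell was left out. The causes of these changes, with spike-in scaling or any other setting, were not tested. A Cd74 limit of 1 or 100 counts, or at least 7 of 13 macrophage markers, left out the same cells. The lists without cell 68 were also added after seeing the data. No paired analysis was possible because the labels give cells no replicate number shared between groups. Levels near 0.0251 CPM cannot be compared at this depth.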

Other observations

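Other secreted factors were also uneven between the groups. Of 24 cytokine and growth factor genes, 19 reached 1 CPM over all cells, of which 10 were at least 2-fold higher in DiD+ cells and 0 lower (median log2 ratio 1.14, or 1.27 with genes at 0 in a group set at their bound). Without Cd74 cells 16 reached 1 CPM, 8 were higher and 1 lower (median 1.04). Of all genes with 1 CPM in either group, 12.1% were as much higher and 4.86% lower over all cells. Without Cd74 cells these shares were 10.4% and 5.71%. A gene under 1 CPM in DiD- cells could enter only as higher. Over genes with at least 1 CPM in both groups, 6 of 14 and 6 of 13 were higher and 0 lower. Of all such genes 6.14% and 6.11% were higher and 3.42% and 3.66% lower. Il33, an alarmin of the IL-1 family, stood, without Cd74 cells, at 320 and 17.5 CPM in DiD+ and DiD- cells (log2 ratio 4.11), with at least 10 counts in 12 cells of each group and 38.3% of the DiD+ counts in cell 82. Csf2, which encodes the growth factor GM-CSF, stood at 153 and 4.56 CPM (4.79), with 97.8% of the DiD+ counts in cell 36, without which the ratio was -0.32, and at least 10 counts in 3 cells of each group. Mif and the macrophage growth factor Csf1 lay at 635 and 712 CPM (-0.16) and at 259 and 309 CPM (-0.26).

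The genes Il15 and Il7, which encode lymphocyte growth factors, were spread over more cells than Csf2. Without Cd74 cells Il15 stood at 16.8 and 2.54 CPM (2.33) with at least 10 counts in 12 DiD+ and 7 DiD- cells, and Il7 at 12.6 and 3.47 CPM (1.6) with 13 and 8 cells. Spp1, which encodes osteopontin, was present in every cell, at 6390 and 2356 CPM (1.44). Gdf15 stood at 88.9 CPM in DiD+ over all cells and at 0.299 CPM without Cd74 cells. Tnf, Il1a and Il1b had 0 counts without Cd74 cells. Il15, Il7, Spp1, Gdf15, Tnf, Il1a and Il1b were chosen after their values were seen.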
